A study of Mus musculus with 3 samples.

Results

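The mitochondrial respiratory chain genes described here are the nuclear-encoded subunits of its 5 complexes, found by gene symbol: every symbol starting Ndufa, Ndufb, Ndufc, Ndufs, Ndufv, Sdh, Uqcr, Atp5 or Cox4 to Cox8, leaving out predicted Gm genes, names ending in -ps and the Ndufaf assembly factors. This gave 92 members of 46675 symbols: 41 in complex I, 4 in complex II, 8 in complex III, 17 in complex IV and 18 in complex V, plus the 4 Sdhaf genes, which encode assembly factors of complex II and not subunits. The data were single-cell 3′ RNA-seq libraries of mouse hindstomach, the glandular part of the stomach, at embryonic day 18.5. There was 1 library for each of 3 genotypes. The control carried Shh-Cre alone, a Cre recombinase under the Sonic hedgehog gene, which is active in the stomach epithelium. The YAP5SA library carried Shh-Cre with YAP5SA, a form of the Hippo pathway coactivator YAP that resists inhibition by phosphorylation, and the Yap knockout library carried Shh-Cre with loxP-flanked Yap on both alleles. The Cre driver was thus shared by all 3 libraries, and no source used here gives the number of embryos behind each.

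The respiratory chain passes electrons from NADH, through complex I, and from succinate, through complex II, to ubiquinone, then through complex III and cytochrome c to complex IV, which reduces oxygen. Complexes I, III and IV pump protons across the inner mitochondrial membrane, and complex V, the ATP synthase, uses the gradient to make ATP. Parts of complexes I, III, IV and V are encoded in the mitochondrial genome, whereas the genes of the members described here lie in the nucleus. In the stomach the acid-secreting parietal cell is known for a dense mitochondrial content, which supplies its proton pump.

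After quality filters 6954 control, 8521 YAP5SA and 4911 Yap knockout cells were kept, with median UMI counts (unique molecules) per cell of 4900 to 5234. Cells were placed in classes by fixed marker genes, and 530, 1722 and 665 of them passed as epithelial in the control, YAP5SA and Yap knockout libraries, with 3457179, 17562589 and 6572809 UMIs in all. Median UMI counts per epithelial cell were 3706.5, 6655.5 and 5434 in the same order. Depth per epithelial cell was thus less even between libraries than depth over all kept cells. Levels are in CPM, a gene's UMIs summed over the cells of a class and scaled to the same total in every class, and 3 levels given together stand in the order control, YAP5SA, Yap knockout (YapKO in the plots). Intervals are exact 95% intervals of a ratio of Poisson counts and cover only the error of counting. Because each genotype had 1 library, embryo, library and genotype cannot be told apart, and genotypes were not tested against each other. In epithelial cells Yap1 was at 49.5, 54.9 and 21.9 CPM, and Ccn2, a known YAP target gene, was at 11.9, 193 and 19.9 CPM. It was not established whether 3′ counts can tell the deleted allele or the YAP5SA transgene from endogenous Yap1. Genes read in non-epithelial cells were also counted in epithelial cells: the summed level of 3 collagen genes (Col1a1, Col1a2 and Col3a1) there was 38.5%, 28.6% and 26.6% of its non-epithelial level.

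In epithelial cells the respiratory chain members together made up 43271, 28241 and 40740 CPM. The YAP5SA sum was 0.653 times the control (interval 0.649 to 0.656), and the Yap knockout sum was 0.942 times the control (interval 0.936 to 0.947). The YAP5SA epithelial cells lay mostly in another cluster than those of the other libraries: 72.8% of the control's and 63.3% of the Yap knockout's were in a cluster best matched by neck and chief cell markers (cluster 11), whereas 85.8% of the YAP5SA cells were in another epithelial cluster (cluster 16) that held 2 control cells in all. A different mix of cells and a different level within like cells cannot be told apart in the YAP5SA sum. The control library serves in both comparisons, so they are not independent of each other. Of the 83 members with at least 20 CPM in the control or YAP5SA, 41 were lower in YAP5SA by 1.5-fold or more and 1 was higher. Over all 7202 genes measured in that comparison, 14.3% were lower and 23.4% were higher by the same margin. The median log2 ratio, taken after adding 5 CPM to each value, was -0.56 over the members and 0.14 over all genes, and 68 of the 83 members lay below 0. With Yap knocked out, 2 of 82 members were lower by 1.5-fold or more and 0 were higher, against 6.66% and 6.92% of all 6774 genes, with median log2 ratios of -0.05 over the members and 0.02 over all genes. The number lower in YAP5SA was 27 with TMM scaling (a trimmed mean of gene ratios in place of total UMIs), and 25 both with classes taken from clusters and with every cell weighted equally. After subtraction of the RNA that non-epithelial cells may have lent, it was 50. Under these alternatives the share over all genes was not computed.

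**Figure D1:**
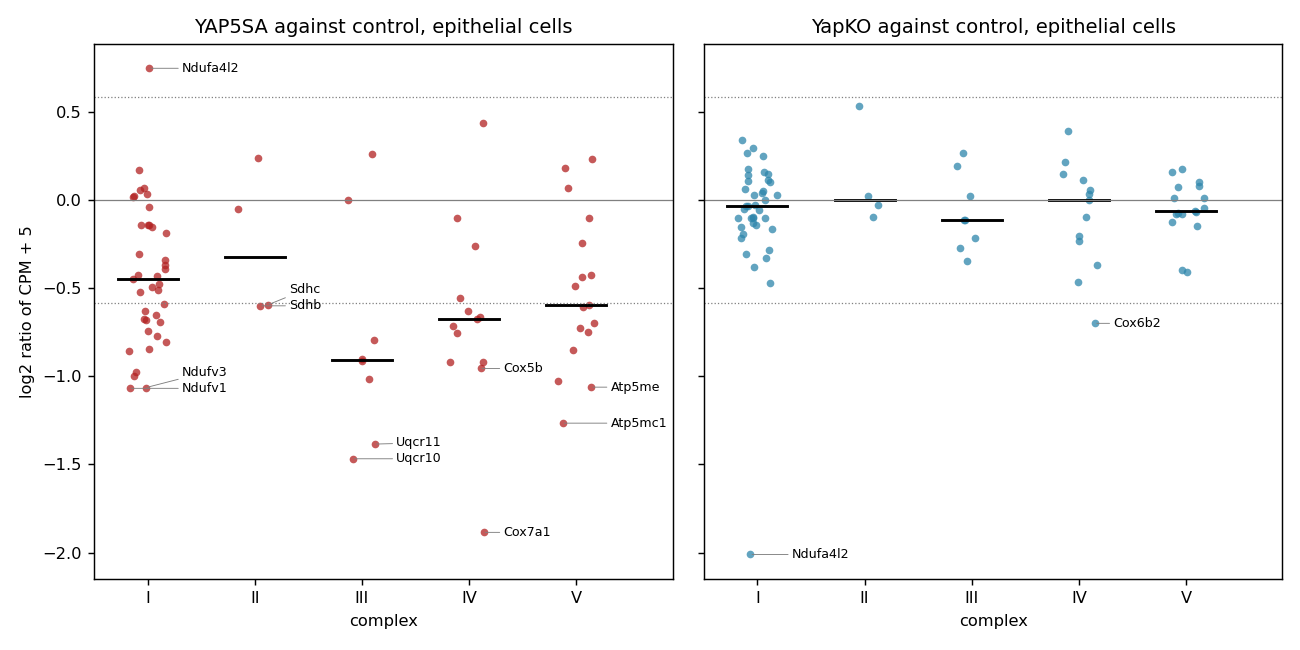
Log2 ratio of CPM + 5 to the control in epithelial cells for each measured respiratory chain member (points) by complex, for YAP5SA (left) and the Yap knockout (right). Black bars are medians, dotted lines mark 1.5-fold, and the named members past that margin are labelled. In YAP5SA the medians run from -0.32 in complex II to -0.91 in complex III, and in the Yap knockout from -0.11 in complex III to -0.00 in complexes II and IV.

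Complex I takes electrons from NADH. Its summed level in the epithelium was 12841, 9007 and 11977 CPM. In YAP5SA 15 of its 39 measured members were lower by 1.5-fold or more, 1 was higher, and the median log2 ratio was -0.45. The 2 lowest were Ndufv1, which carries the NADH-binding site, and its partner Ndufv3. Ndufv1 was at 318, 149 and 243 CPM, a ratio of 0.469 (0.437 to 0.503) for YAP5SA. Ndufv3 was at 570, 270 and 516 CPM, with a ratio of 0.474 (0.449 to 0.499). For both genes the YAP5SA value was the lowest of the 3 libraries. The catalytic core of complex I, the 7 nuclear-encoded subunits that hold the flavin and iron-sulfur centres or line the quinone site, had a median log2 ratio of -0.19 in YAP5SA, with 2 of 7 lower by the margin, and the other complex I members had -0.46, with 13 of 32 lower. Ndufc2 stood at the other end among these genes, with 215 CPM against 242 CPM in YAP5SA.

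Ndufa4l2, grouped with complex I by its symbol, was the member that was higher in YAP5SA epithelium. The gene is a relative of Ndufa4 that is known to be induced by low oxygen, and the Ndufa4 protein itself is now assigned to complex IV. Ndufa4l2 was at 80.1, 138 and 16.1 CPM, with the Yap knockout lowest. The ratio was 1.72 (1.52 to 1.95) in YAP5SA and 0.201 (0.159 to 0.253) in the Yap knockout. The highest level lay in squamous-like cells, whose markers are those of the forestomach lining: Ndufa4l2 was at 639 CPM in the 243 such cells of YAP5SA and at 51.4 CPM in the 1449 YAP5SA epithelial cells that passed for no subclass, where the control had 90.4 CPM. Neck and chief-like cells, which make mucus and pepsinogen, had 51.7 CPM of it in the control and 12.4 CPM with Yap knocked out, whereas mucous pit-like cells had 45.7 and 53.6 CPM. Without parietal, enteroendocrine, squamous and intestinal cells its log2 ratio in YAP5SA turned from 0.75 to -0.15. Ndufa4 was at 288, 302 and 355 CPM in the epithelium.

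Complex II, the succinate dehydrogenase of the citric acid cycle, summed to 719, 547 and 745 CPM. In YAP5SA its 4 subunits split in pairs. The iron-sulfur subunit Sdhb was at 314 CPM in control and 205 CPM in YAP5SA epithelium, a ratio of 0.654 (0.611 to 0.701). The membrane anchor Sdhc was at 232 and 152 CPM, a ratio of 0.655 (0.605 to 0.710). The flavoprotein Sdha was at 72.6 and 69.9 CPM, with an interval of the ratio, 0.839 to 1.11, that holds 1. The other membrane anchor, Sdhd, was at 101 and 119 CPM. With Yap knocked out, Sdha, Sdhb and Sdhc had ratios of 1.02, 0.979 and 0.932, with intervals that hold 1, and Sdhd was at 148 CPM, 1.47 times the control (1.30 to 1.67). The assembly factors Sdhaf1 and Sdhaf2 were read on few UMIs: Sdhaf1 at 25.5, 32.1 and 19.3 CPM and Sdhaf2 at 16.8, 22.1 and 16.6 CPM.

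Complex III, which passes electrons from ubiquinol to cytochrome c, had the lowest summed level relative to the control, 5424, 2598 and 4897 CPM, a ratio of 0.479 (0.471 to 0.487) for YAP5SA and 0.903 (0.887 to 0.919) for the Yap knockout. All 5 of its small subunits were lower by 1.5-fold or more in YAP5SA, with log2 ratios from -1.47 to -0.79. Uqcr10, one of these, was at 1390, 499 and 1409 CPM. Its YAP5SA ratio was 0.359 (0.347 to 0.372). Uqcr11, another, was at 1456, 555 and 1143 CPM, with a YAP5SA ratio of 0.381 (0.368 to 0.394). The Rieske iron-sulfur protein Uqcrfs1, a catalytic subunit, was at 220, 220 and 203 CPM, with a YAP5SA ratio of 0.999 (0.924 to 1.08). The core protein Uqcrc2 was at 142, 171 and 172 CPM, and the other core protein, Uqcrc1, was at 544, 289 and 450 CPM. Within complex III, members thus ranged from -1.47 to 0.26 on the log2 scale in YAP5SA and from -0.35 to 0.26 in the Yap knockout.

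Complex IV, cytochrome c oxidase, summed to 11318, 7200 and 10925 CPM, and 9 of its 13 measured members were lower by 1.5-fold or more in YAP5SA. Cox4i1, the common form of subunit IV, was at 2182, 1375 and 1690 CPM. Cox5b was at 1073, 551 and 1114 CPM, a YAP5SA ratio of 0.513 (0.494 to 0.533), whereas Cox5a was at 617, 574 and 616 CPM. The widely expressed forms Cox6a1, Cox6b1, Cox7a2 and Cox8a had log2 ratios of -0.75, -0.71, -0.63 and -0.68 in YAP5SA and 0.03, 0.11, 0.15 and -0.21 in the Yap knockout. Cox7a2l, which joins complexes III and IV in supercomplexes, was at 282, 190 and 203 CPM. Cox7b was at 514, 269 and 677 CPM and Cox7c at 1083, 904 and 1257 CPM.

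Several complex IV subunits have a second gene used in particular tissues. Cox7a1, the heart and muscle form of subunit VIIa, was at 41.7, 7.63 and 34.7 CPM in the epithelium, on 144, 134 and 228 UMIs, a YAP5SA ratio of 0.183 (0.144 to 0.233) and the lowest of all measured members there. In epithelial cells that passed for no subclass Cox7a1 was at 21.8 CPM (13 UMIs) in control and 6.99 CPM (103 UMIs) in YAP5SA. Its log2 ratio, -1.89, was -0.89 without parietal, enteroendocrine, squamous and intestinal cells, -0.81 with a stricter class gate and -0.70 in cells of 3000 to 10000 UMIs. Cox6b2, known from testis, was at 23.1, 33.1 and 12.3 CPM. Cox6a2, Cox7b2 and Cox8b were below 1 CPM in the epithelium of each library, and Cox8c was not analysed here.

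Complex V summed to 12906, 8807 and 12141 CPM, and 9 of its 17 measured members were lower by 1.5-fold or more in YAP5SA. The 5 subunits of the catalytic F1 head had a median log2 ratio of -0.10 in YAP5SA, with 1 of 5 lower by the margin, and its members Atp5f1b and Atp5f1c were at 954 and 304 CPM against 1001 and 345 CPM in YAP5SA. The 5 small subunits in the membrane were all lower by the margin, with a median of -0.85. Among them Atp5me was at 801, 381 and 845 CPM (YAP5SA ratio 0.476, 0.455 to 0.498). The peripheral stalk, which holds the head still, had a median of -0.43, and its subunit Atp5pb was at 233, 275 and 221 CPM.

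The ring of c subunits that turns in the membrane is made from 3 genes for the same mature protein. Atp5mc1 was at 1535, 635 and 1164 CPM, with a ratio of 0.414 (0.401 to 0.428) for YAP5SA and 0.759 (0.732 to 0.786) for the Yap knockout. Atp5mc3 was at 467, 332 and 492 CPM. Atp5mc2 was at 17.1, 19.5 and 12.2 CPM; it has near-identical copies elsewhere in the genome that can share or lose its reads, so its level is uncertain. Other members with processed pseudogenes may lose reads in the same way, to an extent not known here. The inhibitor of the ATP synthase, Atp5if1, was at 1027, 631 and 1033 CPM.

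With Yap knocked out few members stood apart in the epithelium. Besides Ndufa4l2, Cox6b2 was lower by 1.5-fold or more, on 80 and 81 UMIs (ratio 0.533, 0.386 to 0.735). The next lowest were Ndufa2 at 849 CPM in control and 610 CPM in knockout cells, Atp5f1d at 1329 and 998 CPM, and Cox7a2l as above. The highest, after Sdhd, were Cox7b, Ndufb1 at 204 and 259 CPM, and Ndufa4. On the log2 scale all measured members but Ndufa4l2 and Cox6b2 lay between -0.47 and 0.53. In the cells of 3000 to 10000 UMIs alone, 16 members were lower in the Yap knockout by the margin and 2 were higher. The shares over all genes were not computed in those cells.

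Promoter sequences of the members are shown because transcription factors that bind many of them at once are known. Nuclear respiratory factor 1 (NRF1) and ETS-family proteins such as GABP, also called nuclear respiratory factor 2, are known regulators of respiratory chain genes, and YY1 is a further one. RefSeq promoters (build GRCm38.p6, 250 bases before to 50 after the start) were found for 74 of the 92 members, 13 of them through an older symbol. The exact NRF1 consensus, a palindrome of 10 letters printed in capitals below, was in 5 of 74 member promoters (6.76%) and in 1.07% of the promoters, of the same length, of all 27025 genes in the table. With its sixth base free, a wider form that takes in the exact one, the shares were 25.7% and 5.19%. On either strand, the ETS letters CCGGAAG were in 19 of 74 (25.7%) against 9.93%, and the YY1 letters AANATGGCG were in 11 of 74 (14.9%) against 2.76%. For the next counts members were split by their log2 ratio in YAP5SA epithelium without the minimum of 20 CPM. Of the members lower by 1.5-fold or more, 12 of 31 with a promoter held the ETS letters and 3 of 31 the YY1 letters. The exact NRF1 letters were in 4 of these 31 and the wider NRF1 form in 7. Of the other members with a promoter, 7 of 43 held the ETS letters and 8 of 43 the YY1 letters. The exact NRF1 letters were in 1 of those 43 and the wider form in 12. These are matches of letters, and binding was not measured. The windows below, 36 bases upstream of the start with the motif in capitals, show the exact NRF1 letters in 3 members and the ETS letters (or CTTCCGG, their other strand) in 4, each lower in YAP5SA epithelium by the margin except Ndufs3, which is given as a core subunit that was within it.
Atp5me, NRF1, chr5:108434427-108434462, minus strand: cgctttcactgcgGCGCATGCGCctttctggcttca
Ndufa11, NRF1, chr17:56717689-56717724, plus strand: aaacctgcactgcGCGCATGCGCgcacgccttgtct
Cox6a1, NRF1, chr5:115349098-115349133, minus strand: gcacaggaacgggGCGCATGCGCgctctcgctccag
Uqcr11, ETS, chr10:80406866-80406901, minus strand: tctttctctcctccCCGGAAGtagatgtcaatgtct
Uqcrh, ETS, chr4:116075071-116075106, minus strand: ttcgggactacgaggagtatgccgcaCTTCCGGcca
Atp5f1e, ETS, chr2:174464182-174464217, minus strand: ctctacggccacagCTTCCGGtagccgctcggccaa
Ndufs3, ETS, chr2:90904727-90904762, minus strand: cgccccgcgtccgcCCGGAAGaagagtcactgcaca
Ndufa11 was at 594, 294 and 479 CPM in the epithelium, Atp5f1e at 1635, 969 and 1495 CPM, Uqcrh at 458, 262 and 423 CPM, and Ndufs3 at 191, 172 and 171 CPM.

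Other genes of energy metabolism in the epithelium did not all differ in the same direction as the members. Each list's counts stand against 14.3% of all genes lower and 23.4% higher in YAP5SA epithelium, and 6.66% and 6.92% in the Yap knockout. The subunits encoded in the mitochondrial genome had a median log2 ratio of -0.64 in YAP5SA, with 7 of 12 measured lower by 1.5-fold or more, and of -0.57 in the Yap knockout, with 6 of 12 lower. Among them mt-Co3 was at 3325, 1590 and 1900 CPM. The share of all epithelial UMIs from mitochondrially encoded genes was 2.10%, 1.45% and 1.38%, and the part that cell condition plays in these values was not tested. In fatty acid oxidation 6 of 11 measured genes were lower in YAP5SA and 1, Acadl, was higher, with a median of -0.73. Acaa2, the last enzyme of the cycle, was at 341 CPM in control and 159 CPM in YAP5SA cells. The list's median was 0.27 in the Yap knockout, with 0 of 11 past the margin either way.

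Assembly factors of the chain had a median log2 ratio of -0.07 in YAP5SA, with 2 of 28 measured lower and 6 higher (all genes: 14.3% and 23.4%). For pyruvate dehydrogenase and the citric acid cycle the median was 0.11, with 2 of 17 lower and 1 higher, and for the mitochondrial ribosome it was 0.23, with 1 of 74 lower and 11 higher. Cytosolic ribosomal proteins, a list taken by symbol that also holds the Rps6k kinases, had a median of 0.05, with 3 of 86 lower and 2 higher. For electron carriers and ubiquinone synthesis 3 of 11 were lower, among them Etfb, a subunit of the electron transfer flavoprotein, at 572 CPM against 309 CPM in YAP5SA. The carriers and channels of the inner and outer membranes split: Ucp2, an inner membrane carrier, was at 574 CPM against 185 CPM in YAP5SA, and the ADP/ATP carrier Slc25a4 was at 227 and 531 CPM. Regulators of mitochondrial biogenesis were within the margin in YAP5SA for all 6 measured, whereas with Yap knocked out 1 of 7, the coactivator Ppargc1a, was higher, at 79.4 CPM, a log2 ratio of 2.07.

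Glycolysis and hypoxia response genes lay on the other side of the control in YAP5SA. Of 17 glycolytic genes (all genes: 23.4% higher) 11 were higher by 1.5-fold or more and 1, Pfkm, was lower, with a median log2 ratio of 1.12. Slc2a1, the glucose transporter GLUT1, was at 59.6 CPM in control and 686 CPM in YAP5SA cells, and the enolase Eno1 was at 458 and 1849 CPM. Of 11 measured hypoxia response genes 6 were higher, against the same share of all genes, and 0 lower, with a median of 0.66. Bnip3, which acts in the removal of mitochondria, was at 32.7 and 142 CPM. With Yap knocked out the medians of the 2 lists were -0.14 and -0.02, and 0 of their 16 and 9 measured genes passed the margin. Dissociation stress genes, which mark cell handling, had medians of -0.33 in YAP5SA and -0.37 in the Yap knockout, and their part in the members' levels was not tested.

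**Figure D2:**
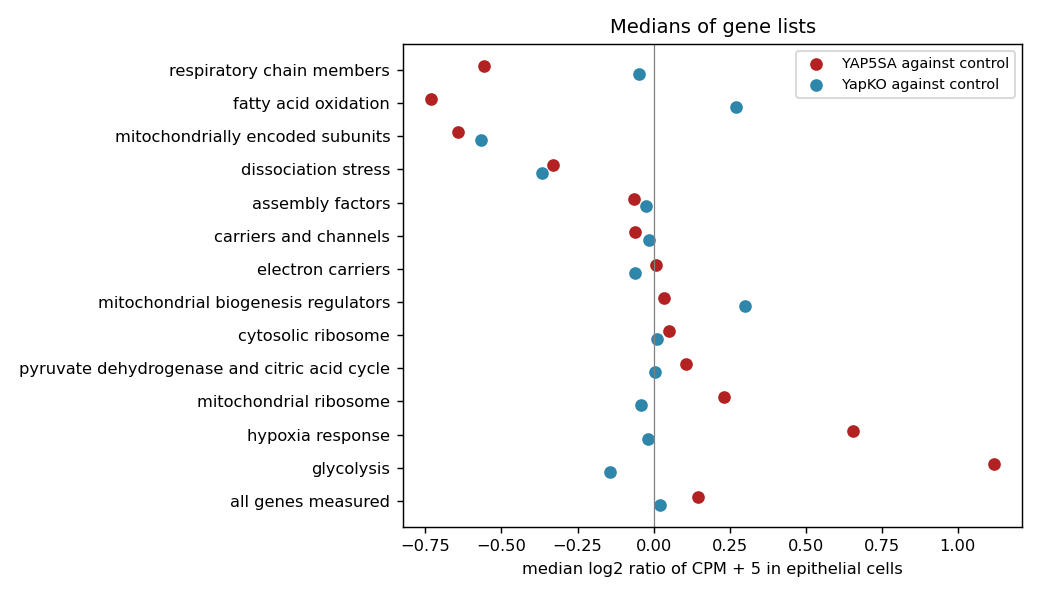
Median log2 ratio of CPM + 5 to the control in epithelial cells for the respiratory chain members, each list of other genes and all genes measured (red, YAP5SA; blue, Yap knockout). In YAP5SA the members (-0.56), the mitochondrially encoded subunits (-0.64) and fatty acid oxidation (-0.73) have the 3 lowest medians, and glycolysis (1.12) has the highest.

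The epithelium of the 3 libraries differed in make-up, so the members were also read within subclasses given by fixed markers. Among subclasses with at least 50 cells, parietal-like cells had the highest summed level of the members; in the Yap knockout the 40 intestinal-like cells were at 49190 CPM. Because many parietal-like cells carried too little of the general epithelial markers, every marker-defined subclass was taken from cells gated as epithelial or not gated at all. These subclasses are therefore not parts of the gated epithelium alone. Parietal-like cells numbered 58 in the control, 12 of them gated as epithelial, and 186 in the Yap knockout, 46 of them gated as epithelial. YAP5SA had 5 such cells, too few to describe. The members summed to 81360 CPM in control parietal cells and to 47198 CPM in Yap knockout parietal cells, a ratio of 0.580 (0.572 to 0.589). Of the 86 measured members, 50 were lower by 1.5-fold or more and 0 were higher, against 13.3% lower and 36.9% higher among all 7309 genes, and the median log2 ratio was -0.65 over the members and 0.31 over all genes. Cox4i1 was at 4756 CPM in control and 2098 CPM in knockout parietal cells, Atp5mc1 at 3095 and 1366 CPM, and Cox7a1 at 352 and 146 CPM. Over 9 alternatives the control sum ran from 65040 to 104100 CPM and the knockout sum from 28560 to 54940 CPM, both lowest with every cell weighted equally. Complex II differed least: its sum was 926 and 855 CPM, an interval of the ratio, 0.813 to 1.05, that holds 1.

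The parietal-like cells of the 2 libraries were close in the level of several parietal genes and apart in others. Atp4a, the pump's catalytic subunit, was at 6415 CPM in control and 6310 CPM in knockout cells, and Atp4b, its partner, was at 8376 and 5328 CPM. The sodium/proton exchanger gene Slc9a4 was at 27.7 and 28.3 CPM, and the potassium channel genes Kcne2 and Kcnq1 were at 83.2 and 97.5 CPM and at 219 and 281 CPM. Of the other parietal markers used to choose these cells, Tesc was at 72.1 and 24.4 CPM, Aqp4 at 30.5 and 55.6 CPM, and Slc26a7 at 0 and 1.95 CPM. Pga5, a marker of neck and chief cells, was at 3617 and 2518 CPM in these cells. Epcam, a general epithelial marker, was at 63.8 and 177 CPM. Ppargc1a, which promotes mitochondrial biogenesis, was at 22.2 and 179 CPM, on the other side of the control from the members. The median share of mitochondrially encoded UMIs per cell was 3.90% in the control and 0.806% in the Yap knockout, at median depths of 3458 and 3190 UMIs. The summed members of a cell had a median of 70659 CPM in the control (quartiles 19169 and 104930) and 17507 CPM in the Yap knockout (quartiles 11912 and 31569). The quartiles overlap, so that some control cells were as low as Yap knockout cells. The single deepest cell held 14.1% of the control's parietal UMIs and 7.22% of the Yap knockout's. With parietal cells taken from clusters, 47 members were lower by the margin, and with at most 10% mitochondrial UMIs there were 60, without a share over all genes. The part of cell condition in this difference was not tested.

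The other epithelial subclasses did not repeat the parietal pattern. In neck and chief-like cells the members summed to 38186 CPM in the control and 34155 CPM in the Yap knockout, with 1 of 81 lower by the margin and 0 higher (all genes: 8.04% lower, 7.35% higher). In pit-like cells they summed to 35907 and 42642 CPM, a ratio of 1.19 (1.17 to 1.21), with 10 of 82 higher and 1 lower (all genes: 11.0% higher, 17.4% lower). The mitochondrially encoded share of all UMIs summed over these cells was 3.87% in the control and 1.28% in the Yap knockout. The marker-defined subclasses held few cells of the control or of YAP5SA: the sums were 38186 CPM (391 cells) and 34804 CPM (24 cells) in neck and chief-like cells, 29043 CPM (19 cells) and 26859 CPM (243 cells) in squamous-like cells, and 35907 CPM (134 cells) and 41523 CPM (8 cells) in pit-like cells. In these subclasses the sums lay nearer to each other than those of the whole epithelium. Each rests on few cells of at least 1 library, and the difference was not tested. In YAP5SA, 19 of the 24 neck and chief-like cells lay in cluster 11 and 4 of the 8 pit-like cells in cluster 16. The remaining marker-defined subclasses, also on few cells, were wider apart. Intestinal-like cells were at 30778 CPM in the control (20 cells) and 51674 CPM in YAP5SA (14 cells). Parietal-like cells were at 81360 CPM (58 cells) and 53310 CPM (5 cells), and enteroendocrine-like cells at 20241.5 CPM (6 cells) and 33380.7 CPM (1 cell). Epithelial cells that passed for no subclass numbered 126 and 1449, but they are a remainder and not one cell type: 78.6% of the control's lay in cluster 11 and 95.8% of the YAP5SA cells in cluster 16. There the members summed to 40259 CPM in the control and 28132 CPM in YAP5SA, a ratio of 0.699 (0.690 to 0.708), with 28 of 83 lower by the margin and 1 higher (all genes: 17.8% lower, 24.1% higher). Uqcr10 was at 1190 and 494 CPM and Atp5mc1 at 1489 and 651 CPM in these cells. The same cells of the Yap knockout, 188 in number, summed to 37174 CPM, and 2 of 82 members were lower by the margin and 1 higher (all genes: 13.7% lower, 14.0% higher).

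**Figure D3:**
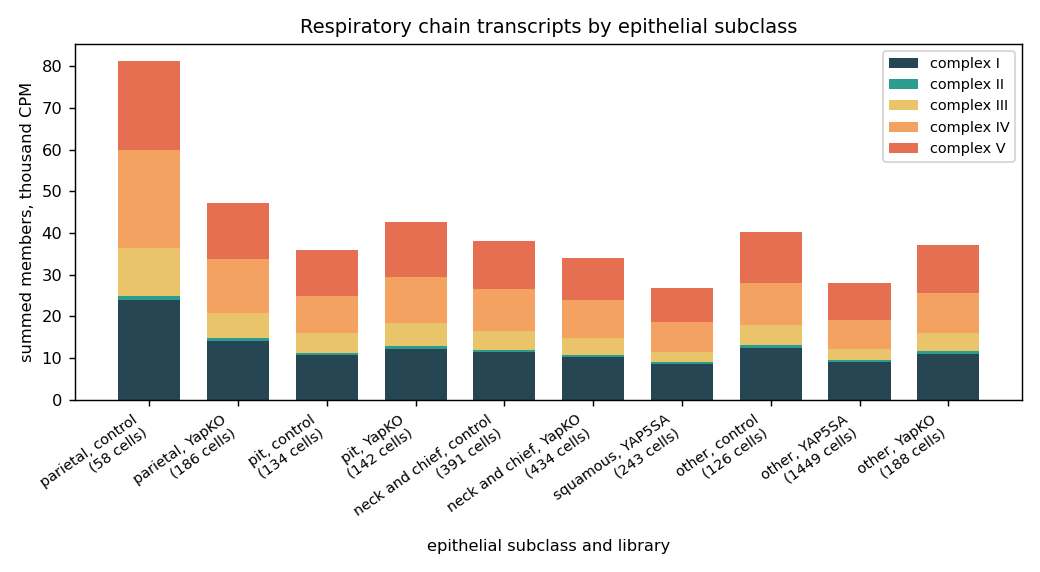
Summed CPM of the members in each epithelial subclass with at least 50 cells, split by complex (stacked bars; the scale starts at 0). The 4 Sdhaf genes are not drawn. With them, the sums are 81360 CPM in control parietal cells, 47198 CPM in Yap knockout parietal cells and between 26859 and 42642 CPM in the rest.

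Outside the epithelium the YAP5SA sums were 0.942 to 1.09 times the control in 8 of 9 classes. They were 1.88 times in erythroid cells, where the control was at 7545 CPM and YAP5SA at 14161 CPM. Globin genes took 65.8% of the erythroid UMIs in the control and 49.3% in YAP5SA, and their part in this ratio was not tested. Members were counted in 4 of the 9 classes. In fibroblasts the sums came to 20756, 21730 and 19993 CPM. In smooth muscle the sums were 36616, 38900 and 38029 CPM, in macrophages 23758, 22746 and 25523 CPM, and in enteric glia 22479, 21577 and 20664 CPM. The ratios to the control lay between 0.919 and 1.07 in these 4 classes. In the other classes the Yap knockout sums lay further from the control. They were 0.847 times it in interstitial cells of Cajal, 0.858 in endothelium, 0.890 in pericytes, 1.10 in enteric neurons and 0.638 in erythroid cells. Globin genes took 77.9% of the erythroid UMIs in the Yap knockout, and their part in the erythroid ratio was again not tested. In YAP5SA the members past 1.5-fold in either direction numbered 1 of 82 in fibroblasts (all genes: 8.49%), 1 of 82 in smooth muscle (6.0%), 0 of 81 in macrophages (14.1%) and 3 of 82 in enteric glia (13.2%). With Yap knocked out they numbered 6 of 82 in fibroblasts (20.1%), 5 of 82 in smooth muscle (14.3%), 3 of 82 in macrophages (20.2%) and 6 of 81 in enteric glia (21.1%). These counts lay below the shares over all genes. Here too clusters differed: 95.8% of control fibroblasts lay in cluster 0 and 78.9% of the YAP5SA ones in cluster 2, and 95.1% of control smooth muscle lay in cluster 6 and 89.6% of the YAP5SA cells in cluster 26. Most macrophages and enteric glia of each library shared a cluster. With TMM scaling 22 members were lower in Yap knockout fibroblasts by the margin, and the median log2 ratio over all genes there shifted from 0.13 to -0.23.

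Some members stood on the same side of the control in every class of the Yap knockout library. Of 87 members that reached 20 CPM in a class, 14 were below the control in each of the 10 classes with at least 50 cells in every library, as were 6.85% of all 12242 genes read in this way. They include Cox4i1, the F1 head genes Atp5f1a to Atp5f1d, and the complex III genes Uqcrc1 and Uqcrfs1. Ndufa4 was the single member above the control in all 10 (all genes not below it: 3.12%), for example at 498 and 769 CPM in smooth muscle and 171 and 269 CPM in fibroblasts. In YAP5SA 0 members were below the control in all 10 (all genes: 3.26%). Ndufa4l2 was lower by 1.5-fold or more in the epithelium and in each of the 4 other classes with Yap knocked out, and below the control in 9 of the 10. It was at 44.3, 26.6 and 10.1 CPM in smooth muscle and at 153, 106 and 78.7 CPM in fibroblasts. The classes come from the same 3 libraries, so they are not independent repeats.

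**Figure D4:**
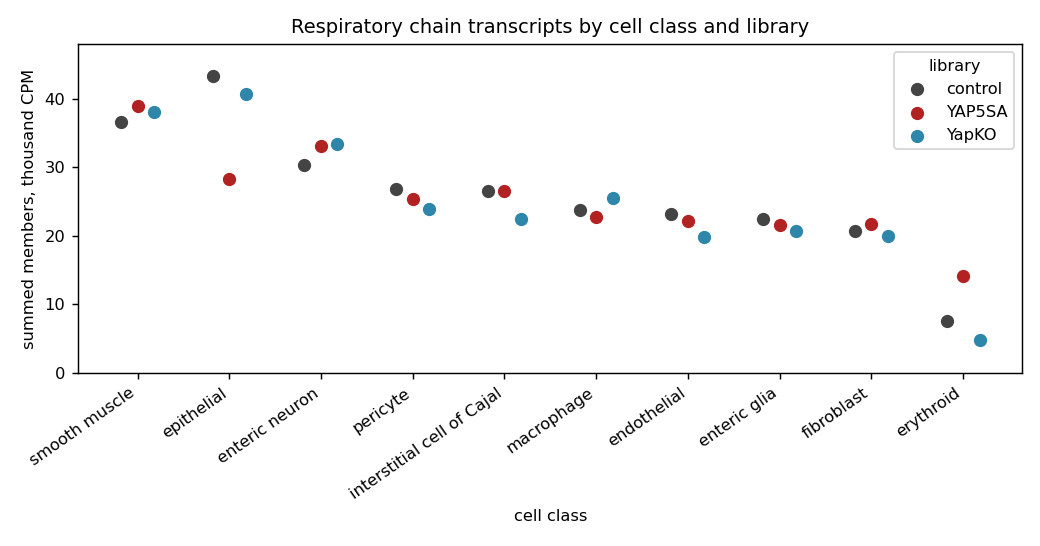
Summed CPM of the members (vertical axis, divided by 1000, from 0) in the 10 cell classes with at least 50 cells in each library, 1 point per library. Epithelial cells have the widest spread among the classes with high sums, with YAP5SA at 28241 CPM below the control at 43271 CPM. Erythroid cells have the lowest sums, with globin UMIs counted in their totals.

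Across cell classes smooth muscle, epithelium and enteric neurons held the first 3 places in each library, and erythroid cells the last. As means over the 3 libraries, smooth muscle was at 37849 CPM ± 1153 (SD, n = 3), epithelium at 37417 ± 8047, enteric neurons at 32278 ± 1674, pericytes at 25382 ± 1484, interstitial cells of Cajal at 25163 ± 2338 and macrophages at 24009 ± 1405. Endothelium followed at 21745 ± 1684, enteric glia at 21573 ± 908, fibroblasts at 20826 ± 871 and erythroid cells at 8840 ± 4806. These SDs hold differences between genotypes as well as between libraries. Neighbours in this order differed by less than the larger of their SDs, apart from the steps from neurons to pericytes, from macrophages to endothelium and from fibroblasts to erythroid cells. The epithelium ranked first in the control and the Yap knockout and at place 3 in YAP5SA, behind smooth muscle and enteric neurons. In erythroid cells globin genes made up 65.8%, 49.3% and 77.9% of the UMIs, and the order of classes was not read without them.

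Most members were spread over all classes, and 2 of the 84 that could be read were tied to one: in all 3 libraries their highest class stood at least 4-fold over the median of the 10 classes after adding 5 CPM, as did that of 18.5% of all 10041 genes read in this way. Both were highest in pericytes, the contractile cells of small vessels. Cox4i2, the form of subunit IV known from lung and oxygen-sensing cells, was at 521, 483 and 384 CPM in pericytes, and its next highest class of the 10 was at 33.2, 19.9 and 14.7 CPM. Ndufa4l2 was at 1810, 1494 and 907 CPM in pericytes, and its next highest class was at 153, 246 and 78.7 CPM. Their common relatives had no such peak: Ndufa4 was at 125, 128 and 210 CPM in pericytes and highest in smooth muscle in each library, and Cox4i1 was highest in epithelium or smooth muscle, at 2182, 2065 and 1690 CPM. Atp5if1, the ATP synthase inhibitor, was highest in enteric neurons in each library, at 1411, 1635 and 1746 CPM. Pericytes numbered 103, 185 and 88 cells.

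**Figure D5:**
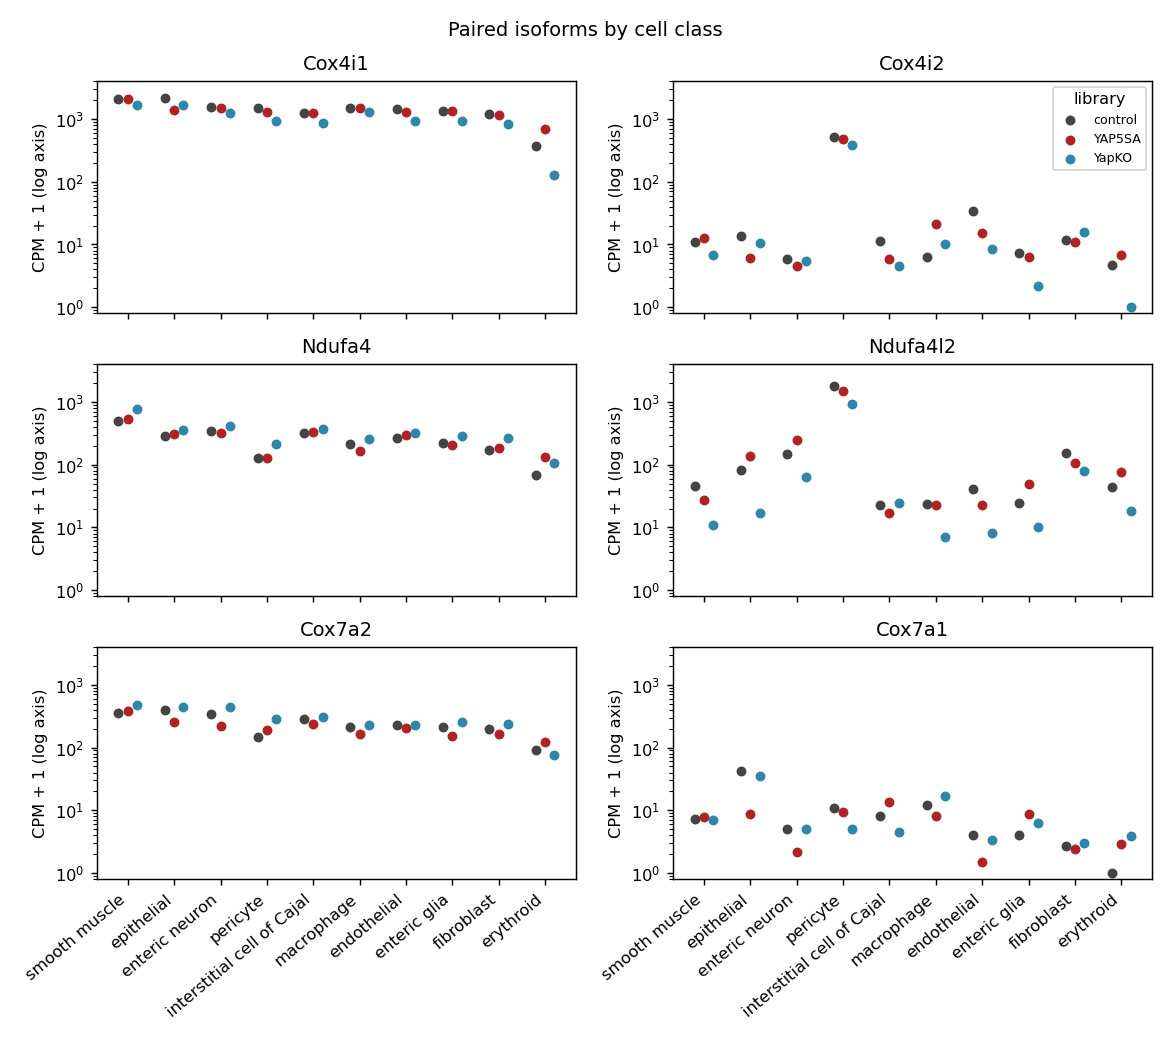
CPM + 1 (log axis) of 3 pairs of related genes, the common form on the left and its relative on the right, in 10 cell classes, 1 point per library. Cox4i2 and Ndufa4l2 peak in pericytes in every library, at 384 to 521 CPM and 907 to 1810 CPM, and Cox7a1 is highest in epithelium in the control and the Yap knockout, at 41.7 and 34.7 CPM.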

How the data were processed

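Single-cell 3′ libraries were made with the DNBelab C4 droplet system, per the labels' protocols, 1 per genotype. The deposited values are raw UMI counts per gene and cell, made by the authors with PISA 1.0, per the file headers, and STAR on build GRCm39, per the submitters' processing notes; no source used here names the annotation release. The libraries hold 48910624, 65843658 and 40857358 UMIs in 7692, 9439 and 5739 cells (control, YAP5SA, Yap knockout). Cell labels are running numbers, and 489 recur in all 3 libraries, which does not show shared cells.

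Cells with at least 500 genes and at most 20% mitochondrial UMIs were kept, and in each library the 6% with the highest Scrublet scores were dropped as likely doublets. A cell joined a class when its mean log marker level, scaled from the median (0) to the 99.8 percentile (1) of all cells, reached 0.3 and led the next class by 0.1; the limits were set after the marker distributions and Leiden clusters (scanpy 1.11.5) had been seen. Names such as parietal or pit mean cells that carry those markers. UMIs were summed per library and class. A ratio was read for genes at 20 CPM or more in either library, log2 ratios used a pseudocount of 5 CPM, and 1.5-fold served as the margin. TMM factors came from edgeR. Ratios and intervals were tested on simulated counts first. These were Poisson draws from one profile, without variation between cells or embryos, so they check the calculation only.

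The members, marker lists and pathway lists were chosen with earlier results of these data known. Named genes are the 2 highest and 2 lowest members of each complex in each epithelial comparison, the paired isoforms, the c subunit genes, Atp5if1, Sdha to Sdhd, up to 2 highest and 2 lowest genes of each list, and members tied to 1 class; others (Ndufa11, Atp5f1e, Uqcrh and Ndufs3 for their promoters, Atp5f1b, Uqcrc1, the members on one side of the control in every class and the values within subclasses) were chosen after their values were seen.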

Additional observations from a re-analysis of the deposited data

Results flagged for a closer look

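Some effects pointed in opposite directions in different cells, and none of these differences was tested, because each genotype had 1 library. In YAP5SA the summed members were 0.653 times the control in epithelial cells, 1.047 times in fibroblasts and 1.062 times in smooth muscle. Ndufa4l2 had a log2 ratio of 0.75 in YAP5SA epithelium and -0.6409 in YAP5SA smooth muscle. In the Yap knockout the summed members were 0.942 times the control in epithelial cells, 1.039 times in smooth muscle and 1.074 times in macrophages. Among subclasses of the Yap knockout they were 0.580 times the control in parietal cells and 1.188 times in pit cells. All counting intervals of these sums leave out 1, and they cover counting error only.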

How the results depend on the processing

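The ratio of the summed members in YAP5SA epithelium was not recomputed under the alternatives. The members' median log2 ratio there stayed negative under all 15 alternatives, from -0.77 to -0.40. The number of members lower by the margin ran from 25 to 50. It was 27 with TMM scaling, 25 with named clusters and 25 with the mean of CPM per cell, against 41; the cause was not tested. TMM scaling shifted the median over all genes from 0.14 to 0.26 and that over the members from -0.56 to -0.40; in the Yap knockout the members' median turned from -0.05 to 0.04 as that over all genes went from 0.02 to 0.11. The number higher in YAP5SA, 1, became 2 after subtraction of non-epithelial RNA and in cells of 3000 to 10000 UMIs, and 0 without parietal, enteroendocrine, squamous and intestinal cells, where the log2 ratio of Ndufa4l2 turned to -0.15 (-0.1535). In Yap knockout epithelium the 2 lower members became 6 after the subtraction, 7 with the mean of CPM per cell and 16 in cells of 3000 to 10000 UMIs, and the 0 higher became 1 with TMM scaling and 2 in those cells.

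Over the 4 non-epithelial classes together, YAP5SA had 4 lower and 1 higher. The lower became 2 with doublets kept, 2 with named clusters, 7 with the mean per cell and 10 in cells of 3000 to 10000 UMIs, and the higher became 2 without mitochondrially encoded UMIs, without those and ribosomal protein UMIs, with TMM scaling and in cells of 3000 to 10000 UMIs. The Yap knockout had 11 lower, which became 28 with TMM scaling and 18 in cells of 3000 to 10000 UMIs, and 9 higher, which became 14 without mitochondrially encoded and ribosomal protein UMIs, 17 with the mean per cell and 16 in cells of 3000 to 10000 UMIs. The class sums over the median class moved with TMM scaling from 1.55 to 2.14 (epithelium), 1.57 to 2.064 (smooth muscle) and 0.366 to 0.8148 (erythroid), and that of enteric neurons moved from 1.34 to 1.186 in cells of 3000 to 10000 UMIs. The parietal count in the Yap knockout, 50, ran from 44 to 64 over 9 alternatives, while the summed level ran from 65040 to 104100 CPM in the control and from 28560 to 54940 CPM in the Yap knockout.

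Under the alternatives the share of all genes past the margin was not computed, so the counts of members there stand without it. No paired analysis was possible because each genotype had 1 library. Depth limits genes near 20 CPM, such as Cox7a1 and Cox6b2.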
